A study of Mus musculus with 18 samples.

Results

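The genes described here are 32 genes of fatty acid oxidation and ketone body metabolism, taken as every row of the expression table whose gene symbol is on that list, 32 of 27131 rows in all. They were followed in RNA from the colon of untreated C57BL/6 mice, in 9 libraries labelled Hif2a +/+ (WT) and 9 labelled with an altered Hif2a allele (HIF2). The allele is written Hif2a LFL in the sample labels and LSL in the design text, and the labels describe these mice as overexpressing HIF2 in the colon. HIF2, or HIF-2α, is the oxygen-regulated transcription factor encoded by Epas1. Nothing in the sources used here gives the promoter or cell type that drives the overexpression, or the age and sex of the mice. The comparison asks which of these genes differ in level between the colons of the 2 genotypes.

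Long-chain fatty acids enter mitochondria as carnitine esters, through CPT1 on the outer membrane, the carnitine-acylcarnitine carrier and CPT2. Inside, acyl-CoA dehydrogenases, hydratases, hydroxyacyl-CoA dehydrogenases and thiolases shorten the chain by cycles of β-oxidation and pass electrons through the electron transfer flavoprotein, while peroxisomes shorten very long chains. Colonocytes are known for burning butyrate, a short-chain fatty acid made by gut bacteria, and for making ketone bodies from the acetyl-CoA that results. PPARα, encoded by Ppara, is a nuclear receptor that switches on many of these genes, with the coactivator PGC-1α, encoded by Ppargc1a.

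Promoters are shown for 5 genes, to let the letters upstream of each start be read beside its values. Fabp1 and Fabp2 fell in HIF2 and Cd36 rose, while Acadvl and Plin2 did not pass over all libraries. The last 2 are shown as examples of the 8 genes that were above the WT range in each of 3 HIF2 libraries described below. Each run is 5′ to 3′ on the strand of the gene and ends at the base before the annotated start or before the first exon that the window meets, from RefSeq on GRCm38.p6. Capitals mark matches, on either strand, to the hypoxia response cores ACGTG and GCGTG or to DR1, a direct repeat of 2 AGGNCA sites with 1 base between them, of the kind that PPAR and related nuclear receptors bind. The windows are chr6:71199629-71199826 on the plus strand for Fabp1, chr3:122894822-122895071 on the plus strand for Fabp2, chr5:17835897-17836146 on the minus strand for Cd36, chr11:70015429-70015678 on the minus strand for Acadvl and chr4:86670061-86670309 on the minus strand for Plin2.
Fabp1: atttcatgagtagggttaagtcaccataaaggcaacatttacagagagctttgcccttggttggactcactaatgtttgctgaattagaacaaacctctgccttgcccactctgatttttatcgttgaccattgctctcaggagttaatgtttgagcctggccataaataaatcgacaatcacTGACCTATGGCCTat
Fabp2: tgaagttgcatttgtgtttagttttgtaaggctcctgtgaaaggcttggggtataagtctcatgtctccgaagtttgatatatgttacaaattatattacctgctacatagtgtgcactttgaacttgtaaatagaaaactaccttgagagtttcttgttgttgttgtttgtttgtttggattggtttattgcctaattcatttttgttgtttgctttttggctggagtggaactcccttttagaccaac
Cd36: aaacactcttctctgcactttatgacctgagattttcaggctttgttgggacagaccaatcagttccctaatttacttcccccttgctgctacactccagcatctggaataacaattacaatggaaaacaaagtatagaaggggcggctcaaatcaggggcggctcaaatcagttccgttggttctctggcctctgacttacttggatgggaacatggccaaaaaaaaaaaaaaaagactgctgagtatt
Acadvl: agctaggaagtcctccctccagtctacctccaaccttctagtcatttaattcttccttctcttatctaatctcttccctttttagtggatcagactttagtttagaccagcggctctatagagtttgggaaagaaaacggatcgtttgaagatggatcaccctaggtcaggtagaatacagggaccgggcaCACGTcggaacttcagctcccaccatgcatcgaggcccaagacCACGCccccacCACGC
Plin2: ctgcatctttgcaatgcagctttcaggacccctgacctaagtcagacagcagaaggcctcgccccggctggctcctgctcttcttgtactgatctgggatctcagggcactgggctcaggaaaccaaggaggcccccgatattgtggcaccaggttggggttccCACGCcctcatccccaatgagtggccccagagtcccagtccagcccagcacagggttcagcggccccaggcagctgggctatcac

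The Fabp1 window held the direct repeat and the Fabp2 and Cd36 windows held no match to any of the 3 motifs. The Cd36 window lies inside the gene, which runs from 17781690 to 17888801 on the minus strand. The bases before the outermost annotated start of Cd36 are therefore not shown. Promoter entries were matched for 27 of the 32 genes, and the 250 bases before the start that each entry gives were searched. Many of these windows overlap annotated exons, and those of Cpt1a, Acaa1a and Ppara, among others, lie inside the gene. The motif counts below therefore include some transcribed bases. The direct repeat stood in 0.338% of all 32851 promoters and, among the 27 genes, in that of Fabp1 alone. Either hypoxia core stood in 38.6% of all promoters and in those of 14 of the 27 genes. ACGTG was in 16.6% of all promoters and GCGTG in 28.2%, and the Acadvl window held 3 cores against 1 in that of Plin2. Of the other genes above the WT range in the same 3 HIF2 libraries, Cpt2 held 2 cores and Hadha, Hadhb and Ech1 held 0. Acaa2 and Decr1 had no matched entry. Among the genes that fell, Ppara and Ppargc1a held 1 each, and Cpt1a, Acaa1a, Fabp1 and Fabp2 held 0. A match describes the letters in the window and is not evidence of a bound factor.

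The libraries differed in ways that touch several results below. FPKM, fragments mapped to a gene after scaling for transcript length and library size, summed to 686539 to 937505 per library, and the number of reads behind the values is unknown. Epas1 itself stood at 18.8 ± 3.09 FPKM (SD, n = 9) in WT and 22.7 ± 6.36 in HIF2, a difference that did not pass (limma adjusted p = 0.246), while its targets Slc11a2 and Egln3 lay above the WT range in 7 of 9 HIF2 libraries and inside it in HIF2 replicates 2 and 4. Means of the log2 levels of marker genes, set to 0 at the WT mean, showed other splits. The smooth muscle mean of 20 genes, 18 of them higher in HIF2, was 2.52 to 3.53 in HIF2 replicates 0 to 5, -0.50 to 0.42 in HIF2 replicates 6 to 8, 2.33 in WT replicate 3 and -1.03 to 0.50 in the other WT libraries. Fibroblast genes were higher in 11 of 11 tested, endothelial genes in 11 of 12, macrophage genes in 9 of 11 and skeletal or cardiac muscle genes in 2 of 3, while 6 of 16 general epithelial genes, 7 of 14 absorptive colonocyte genes and 1 of 8 adipocyte genes were lower. None of 4 neutrophil genes passed, and 10 of 14 HIF target genes were higher. The epithelial mean was -0.19 to 0.18 in WT and -0.36 to 0.11 in HIF2, and the defining colon markers were present in every library, with Epcam at no less than 631 FPKM, Car1 at no less than 1313 and Cdx2 at no less than 35.1. The Y-linked gene Ddx3y was under 1 FPKM in 4 libraries of each genotype, among them HIF2 replicates 6, 7 and 8, so the 3 HIF2 libraries with little smooth muscle RNA are also all of that class, and they had the highest mean of 14 HIF target genes, 2.67 to 2.76. These properties cannot be told apart in those 3 libraries. In bulk tissue, fewer cells of a type and less RNA per cell cannot be told apart either.

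Over all 18 libraries, 7 of the 31 tested genes passed limma's test at a Benjamini-Hochberg adjusted p under 0.05, 1 higher in HIF2 (Cd36) and 6 lower (Cpt1a, Acaa1a, Ppara, Ppargc1a, Fabp1 and Fabp2). This is 22.6% of the 31 (3.23% higher and 19.4% lower), beside 22.1% of the 13976 genes tested (11.0% higher and 11.1% lower). The median difference was 0.04 on the log2(FPKM + 1) scale, against -0.02 for all genes. The total share and the median were thus near those of all genes. No gene of the list had HIF2 and WT ranges that did not overlap, as 2.02% of all tested genes did. With upper quartile scaling 1 gene was higher (3.23% against 12.7% of all genes) and 3 were lower (9.68% against 8.91%). By role, 1 of 3 tested carnitine shuttle genes fell, as did 1 of 4 peroxisomal genes, both regulators and both fatty acid binding proteins, while none of the 16 tested mitochondrial chain-shortening and electron transfer genes passed.

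**Figure D1:**
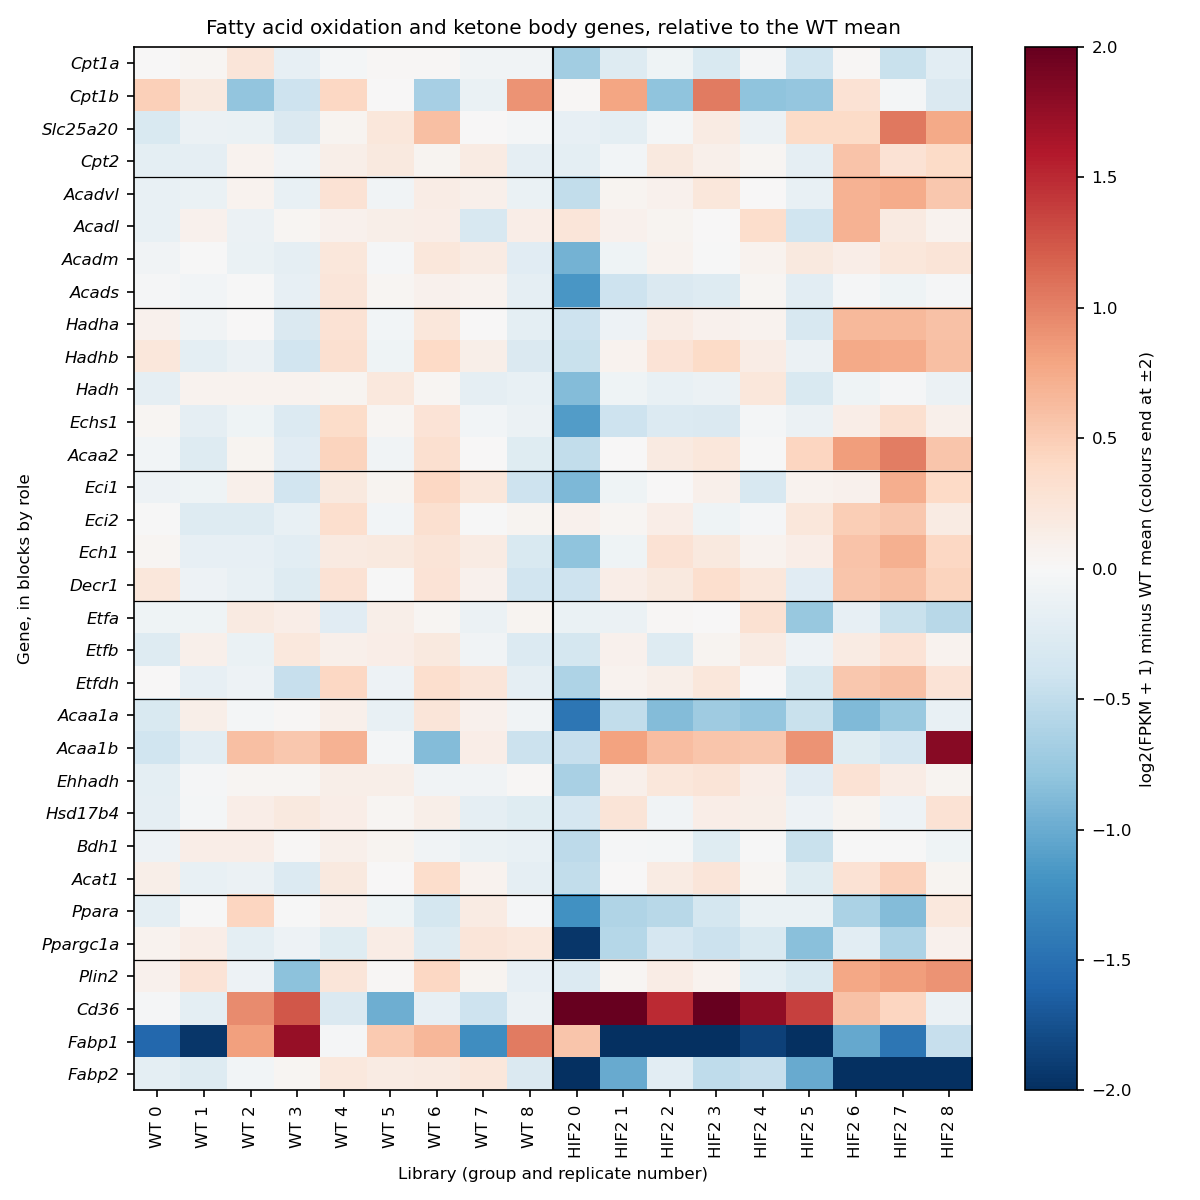
Level of each of the 32 genes (rows, in blocks by role) in each library (columns), as log2(FPKM + 1) minus the mean of the 9 WT libraries, with colours ending at ±2. Cd36 is high in HIF2 replicates 0 to 5, Fabp2 is lowest in HIF2 replicates 0, 6, 7 and 8, and HIF2 replicates 6 to 8 are the reddest columns for the mitochondrial genes.

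The carnitine shuttle had 1 gene that fell and none that rose. Cpt1a, the liver-type carnitine palmitoyltransferase that sets the rate of long-chain entry, ranged from 70.7 to 93.9 FPKM in WT (median 79.7) and from 48.7 to 80.9 in HIF2 (median 66.1). The groups overlapped, with 6 of 9 HIF2 libraries below the lowest WT library. It fell by 0.27 on the log2 scale (SE 0.09, limma adjusted p = 0.0344). The call did not hold in a fit that included the smooth muscle mean (-0.20, adjusted p = 0.259), in the libraries with little smooth muscle RNA (-0.23, adjusted p = 0.118), in those with Ddx3y near 0 (-0.21, adjusted p = 0.278) or with Ddx3y (-0.31, adjusted p = 0.172), with the epithelium covariate, quantile or upper quartile scaling (adjusted p from 0.0679 to 0.0716), or without any 1 of HIF2 replicates 1, 3, 5 and 7 and WT replicates 0, 1, 2 and 5 (adjusted p from 0.0501 to 0.0686). Cpt1b, the muscle-type form, was at 0.865 ± 0.723 FPKM in WT and 0.849 ± 0.918 in HIF2, was listed at 0 in HIF2 replicate 2, and was not tested because its mean lay under 1. Cpt2, the inner-membrane transferase, ranged from 29.5 to 39.1 FPKM in WT (median 35.2) and from 29.5 to 50.6 in HIF2 (median 36.2). Its 3 highest libraries, all HIF2, lay above the WT range, and the difference of 0.13 (SE 0.10, limma adjusted p = 0.418) did not pass. Slc25a20, the carnitine-acylcarnitine carrier between them, differed by 0.25 (SE 0.16, adjusted p = 0.321).

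None of the 16 tested genes of mitochondrial chain shortening and electron transfer passed limma's test over all 18 libraries, and none passed an exact rank test. Only 1, Acads, had an unadjusted p under 0.05. Among the 4 acyl-CoA dehydrogenases, which take the first step on chains of different length, the differences ran from -0.27 for the short-chain enzyme Acads (SE 0.13, limma adjusted p = 0.142) to 0.19 for the very-long-chain enzyme Acadvl (SE 0.14, adjusted p = 0.386). Acads passed with array weights (-0.23, adjusted p = 0.0452), and Acaa2 (0.54, adjusted p = 0.0226) and Eci2 (0.33, adjusted p = 0.0157) with an epithelium covariate. The hydratase, dehydrogenase and thiolase genes ran from -0.19 for Echs1 to 0.30 for Acaa2, the mitochondrial thiolase. Hadha and Hadhb, the paired subunits of the trifunctional protein that handles long chains, differed by 0.15 and 0.27. Eci1, Eci2, Ech1 and Decr1, which prepare unsaturated chains, ran from 0.01 to 0.21, and the electron transfer genes Etfa, Etfb and Etfdh from -0.21 to 0.10. Without HIF2 replicates 2 and 4, Etfa passed as lower (-0.31, adjusted p = 0.0451) and Fabp1 no longer did, so the count of 6 lower held different genes. Levels were high next to those of the regulators, since WT means of these 16 genes ran from 32.3 FPKM for Decr1 to 175 for Ech1.

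**Figure D2:**
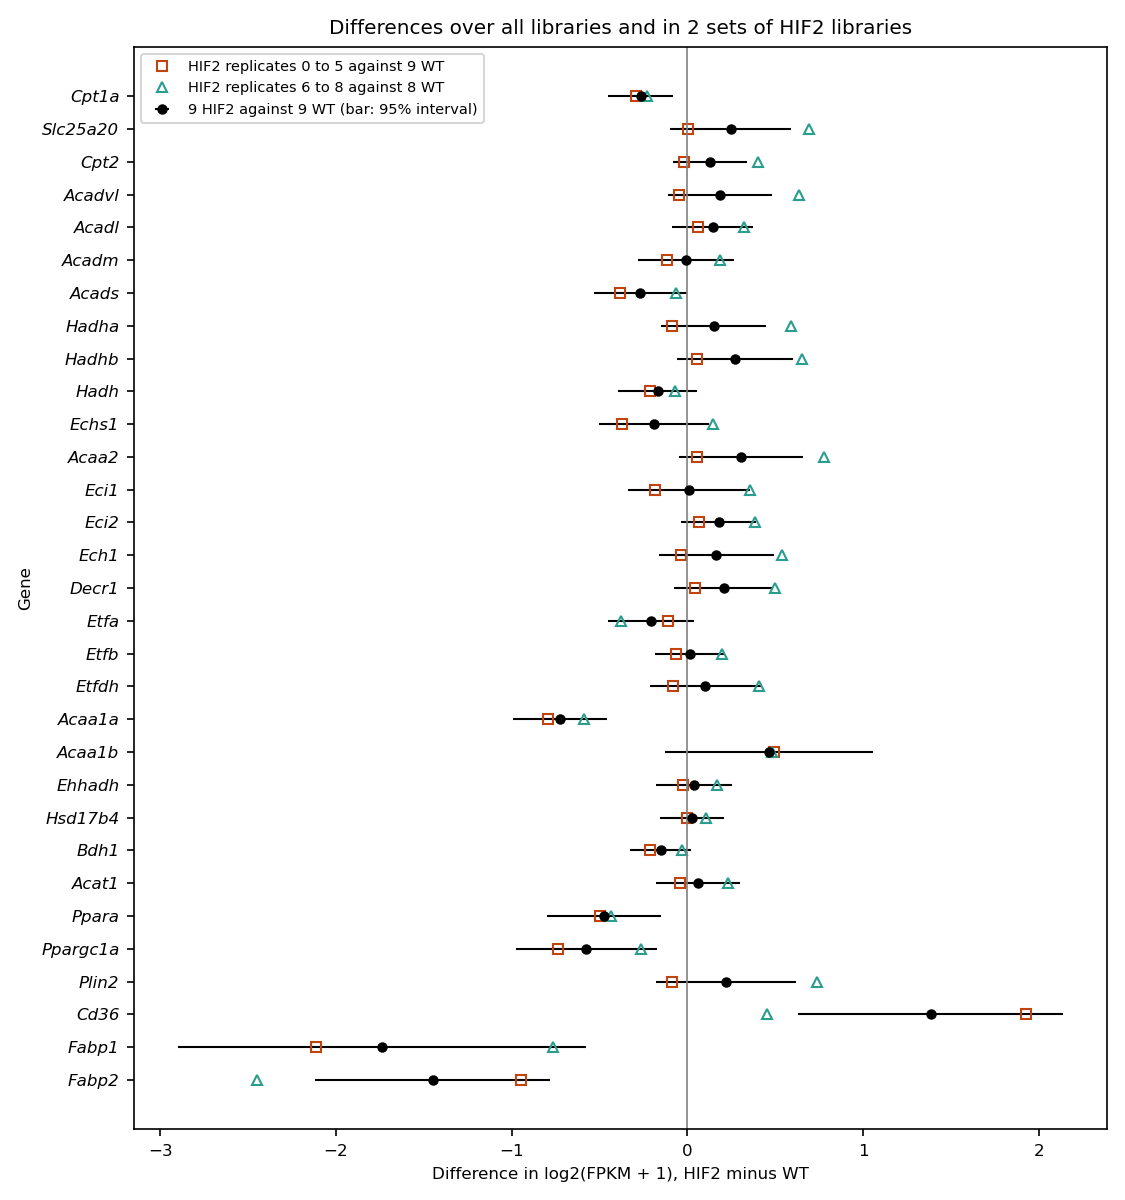
Difference between HIF2 and WT for the 31 tested genes on the log2(FPKM + 1) scale: black points with 95% intervals for all 18 libraries, squares for HIF2 replicates 0 to 5 against 9 WT, triangles for HIF2 replicates 6 to 8 against the 8 WT libraries without replicate 3. The triangles lie above 0 for most mitochondrial genes, at 0.65 for Hadhb and 0.78 for Acaa2, and at -2.45 for Fabp2.

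The HIF2 libraries were also compared with WT in 2 sets, split by their smooth muscle mean, and the difference between the sets was not tested. In HIF2 replicates 6 to 8, the 3 with little smooth muscle RNA, 9 of the 31 genes were higher than in 8 WT libraries (29% against 8.99% of all genes) and 3 lower (9.68% against 10.1%), and the median difference was 0.23 against 0.03 for all genes. The genes that rose were Slc25a20 (0.69), Cpt2 (0.40), Acadvl (0.64), Hadha (0.59), Hadhb (0.65), Acaa2 (0.78), Ech1 (0.54), Decr1 (0.50) and Plin2 (0.74), with limma adjusted p-values from 0.00108 for Plin2 to 0.0247 for Decr1. Those that fell were Acaa1a, Fabp2 and Etfa, the last by 0.38 (adjusted p = 0.0247). For 8 of the 9 genes, all but Slc25a20, each of the 3 libraries lay above the highest of all 9 WT libraries. These genes had been called higher in the same 3 libraries, and the share of all genes so separated was not computed. Hadhb, for example, stood at 243 to 270.2 FPKM in these 3 against 122 to 212 in WT, and Acadvl at 138 to 159 against 85.4 to 117. In the other 6 HIF2 libraries Hadhb was 117 to 208 and Acadvl 67.0 to 111.

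In a fit over all 18 libraries that included the smooth muscle mean, 8 genes rose (25.8% against 6.87% of all genes) and 2 fell (6.45% against 7.33%). These 8 are the 9 above without Ech1, with differences from 0.36 for Cpt2 to 0.83 for Plin2. The smooth muscle mean was high only in HIF2 replicates 0 to 5 and WT replicate 3. This fit therefore leans on HIF2 replicates 6 to 8 as the comparison above does, and is not a separate result. In HIF2 replicates 0 to 5 against 9 WT, 1 gene rose (against 12.4% of all genes) and 6 fell (against 13.4%), the same 7 genes as over all libraries, and the median was -0.08. The log2 mean of the 16 mitochondrial genes, set to 0 at the WT mean, was -0.18 to 0.23 in WT, -0.12 to 0.08 in HIF2 replicates 1 to 5, 0.24 to 0.42 in HIF2 replicates 6 to 8 and -0.55 in HIF2 replicate 0. HIF2 replicate 0 was the lowest HIF2 library for 23 of the 32 genes. The share of all genes for which it was the lowest was not computed, so the count is not particular to this list. That library also had the highest mean of 4 neutrophil genes, 6.56, and its part in the low values was not tested. Whether the smooth muscle RNA, the HIF target level or the Ddx3y class has a part in the higher values of the 3 libraries was not tested beyond the fits given here, since all 3 properties fall on the same libraries. In the libraries with Ddx3y near 0, 4 of each genotype, Acadvl was the 1 gene that rose (0.53, limma adjusted p = 0.0499), where 2.77% of all genes rose, and Fabp2 the 1 that fell, where 4.19% did.

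**Figure D3:**
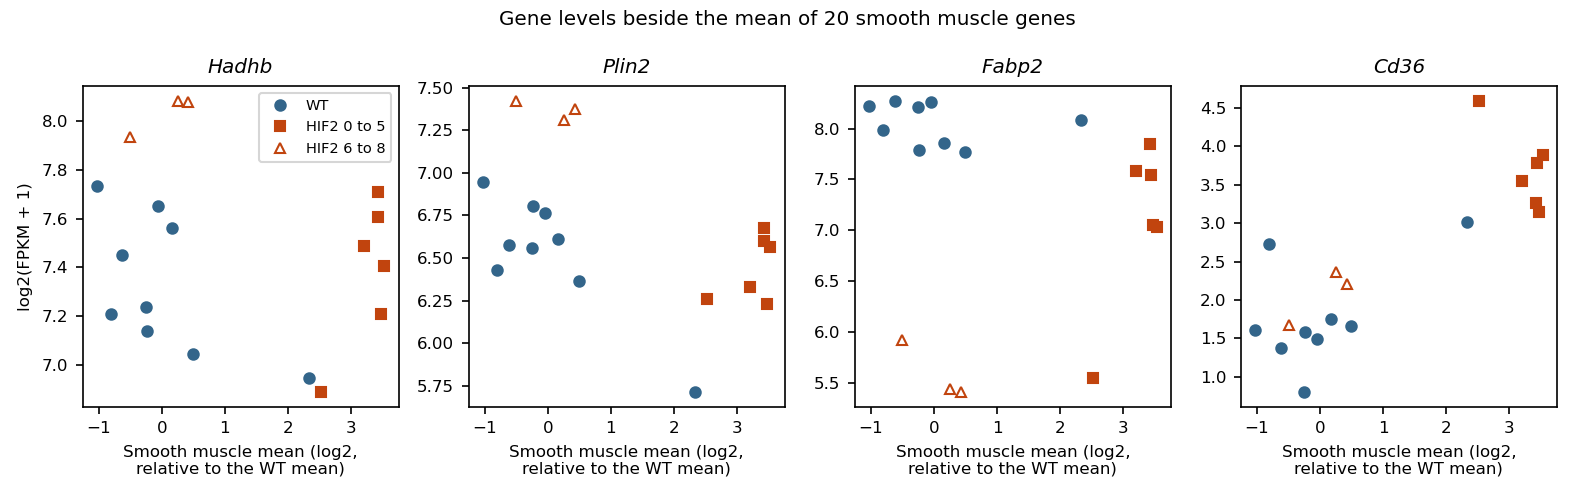
Levels of Hadhb, Plin2, Fabp2 and Cd36 (vertical axes, log2(FPKM + 1)) against the mean of 20 smooth muscle genes (horizontal axes, log2 relative to the WT mean) in each library. HIF2 replicates 6 to 8 share the smooth muscle range of the WT libraries and are above them for Hadhb and Plin2 and below them for Fabp2, while Cd36 is high in the libraries with much smooth muscle RNA.

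Of the 4 peroxisomal enzymes, 1 fell. Acaa1a, the peroxisomal thiolase that cleaves the shortened chain, ranged from 20.7 to 30.6 FPKM in WT (median 26.0) and from 8.82 to 23.0 in HIF2 (median 15.0). In HIF2, 8 of 9 libraries lay below the lowest WT library, and only replicate 8 reached the WT range. It fell by 0.72 (SE 0.13, limma adjusted p = 0.000670), from 25.9 ± 2.94 to 15.6 ± 3.96 FPKM (SD, n = 9), and by 0.59 in the libraries with little smooth muscle RNA. In the libraries with Ddx3y near 0 it did not pass (-0.64, adjusted p = 0.066). The near-copy Acaa1b stood at 2.51 ± 1.27 FPKM in WT and 4.13 ± 2.82 in HIF2, a difference of 0.47 (SE 0.28, adjusted p = 0.270). Ehhadh, the bifunctional hydratase and dehydrogenase of the classical peroxisomal route, and Hsd17b4, its counterpart for branched chains, differed by 0.04 and 0.03. Neither passed.

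The balance of the 2 thiolase copies shifted. The log2 ratio of Acaa1b to Acaa1a was -3.01 ± 0.56 (SD, n = 9) in WT, from -4.12 to -2.38, and -1.82 ± 0.46 in HIF2, from -2.62 to -1.04. The ratio was above the WT range in 8 of 9 HIF2 libraries, a difference of 1.19 (2-sided exact permutation test over 48620 splits, p = 0.000288, adjusted over 4 ratios 0.00115). In the libraries with little smooth muscle RNA it was 1.07 (adjusted p = 0.0727, exact permutation). Both genes are on chromosome 9 of GRCm38, Acaa1a at 119339676 to 119350299 on the plus strand and Acaa1b at 119148023 to 119157093 on the minus strand. Their longest coding transcripts are 96.6% identical over 1428 aligned bases, with an identical run of 327 bases, so how the authors' tools divided reads between them is uncertain and so are both levels. An exon of Acaa1a also overlaps Myd88 on the opposite strand, and the kit does not mark strand. Myd88 differed by -0.12 (limma adjusted p = 0.630). The other 3 ratios, Cpt1b to Cpt1a, Fabp1 to Fabp2 and Acadl to Acadm, differed by 0.20, -0.29 and 0.15, with adjusted exact permutation p-values from 0.712 to 0.729.

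Neither of the 2 ketone body enzymes passed. Bdh1, the dehydrogenase that interconverts acetoacetate and β-hydroxybutyrate, ranged from 26.8 to 32.9 FPKM in WT (median 30.5) and from 20.6 to 29.9 in HIF2 (median 29.0). All 9 HIF2 libraries were below the WT median and 3 were below the WT range, with a difference of -0.15 (SE 0.08, limma adjusted p = 0.202). Acat1, the mitochondrial acetoacetyl-CoA thiolase, ranged from 45.9 to 71.6 FPKM in WT (median 56.0) and from 39.7 to 77.4 in HIF2 (median 58.1). The groups overlapped almost entirely and differed by 0.06 (SE 0.11, adjusted p = 0.768).

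Both regulators fell. Ppara ranged from 6.95 to 12.7 FPKM in WT (median 9.08) and from 3.37 to 10.8 in HIF2 (median 5.95). The groups overlapped, with 6 HIF2 libraries below the WT range and replicate 8 inside its upper part. It fell by 0.48 (SE 0.15, limma adjusted p = 0.0325). The call was lost without any 1 of HIF2 replicates 1, 6 and 7 and WT replicates 2, 4 and 7 (adjusted p from 0.0522 to 0.0665), when the smooth muscle mean was included (-0.44, adjusted p = 0.174), in the libraries with little smooth muscle RNA (-0.43, adjusted p = 0.194), in the libraries with Ddx3y near 0 (-0.34, adjusted p = 0.450) and with Ddx3y (-0.59, adjusted p = 0.107), with upper quartile scaling (adjusted p = 0.0537) and with an exact rank test (adjusted p = 0.0515). Ppargc1a ranged from 10.9 to 15.7 FPKM in WT (median 13.8) and from 2.69 to 14.0 in HIF2 (median 9.51). Of the HIF2 libraries 7 lay below the WT range, replicate 0 far below the other 8, and it fell by 0.58 (SE 0.19, limma adjusted p = 0.0371). The call was lost when the smooth muscle mean was included (-0.40, adjusted p = 0.305), in the libraries with little smooth muscle RNA (-0.26, adjusted p = 0.282), in the libraries with Ddx3y near 0 (-0.38, adjusted p = 0.254) and with Ddx3y (-0.73, adjusted p = 0.136), with the replicate block (adjusted p = 0.0628), with the epithelium covariate, quantile or upper quartile scaling (adjusted p from 0.0501 to 0.0566), and without any 1 of HIF2 replicates 1, 5 and 7 and WT replicates 0, 1, 5, 7 and 8 (adjusted p from 0.0534 to 0.0666).

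Of the genes of uptake, binding and storage, 1 rose and 2 fell. Fabp2, the intestinal fatty acid binding protein, ranged from 217 to 309 FPKM in WT (median 271) and from 41.7 to 229 in HIF2 (median 130.2). In HIF2, 8 of 9 libraries lay below the WT range, with replicates 0, 6, 7 and 8 at 41.7 to 60.0 and replicate 2 inside the WT range. The difference was -1.45 (SE 0.32, limma adjusted p = 0.00335), and it was -2.45 in the libraries with little smooth muscle RNA and -2.21 when the smooth muscle mean was included. In the libraries with Ddx3y it did not pass (-0.98, adjusted p = 0.121). Small intestine markers were lower in HIF2 as a group, with 9 of 14 genes lower and a mean of -0.56 to 0.90 in WT and -1.53 to -0.86 in HIF2. In HIF2 replicate 2, with the most Fabp2, that mean was -1.53. It was -1.004 to -0.873 in replicates 0, 6, 7 and 8, with the least Fabp2. In HIF2 replicates 1, 3, 4 and 5 it was -1.38, -0.86, -1.32 and -1.26. The absorptive colonocyte mean was -0.35 to 0.25 in WT. In HIF2 replicates 0, 6, 7 and 8 it was -1.76, -0.997, -0.968 and -0.44. In HIF2 replicates 1 to 5 it was -0.78, -0.45, -0.45, -0.25 and -0.68. The part of either in the result was not tested.

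Fabp1, the liver-type binding protein, was low in colon and uneven. In WT replicates 0 to 8 it stood at 1.41, 0.85, 11.6, 22.8, 6.02, 9.27, 10.4, 2.04 and 13.8 FPKM. The HIF2 libraries stood at 9.46 in replicate 0, 0.96 in replicate 4, 2.51, 1.64 and 4.18 in replicates 6 to 8, and were listed at 0 in replicates 1, 2, 3 and 5. HIF2 replicate 0 lay inside the WT range while the 4 at 0 lay below it, and the difference was -1.74 (SE 0.55, limma adjusted p = 0.0302). A listed 0 may be a failed estimate, and the fitted value depends on it. The call was lost in the libraries with little smooth muscle RNA (-0.76, adjusted p = 0.465), when the smooth muscle mean was included (-1.27, adjusted p = 0.261), without both HIF2 replicates 2 and 4 (-1.56, adjusted p = 0.0812), in the libraries with Ddx3y near 0 (-1.69, adjusted p = 0.162) and with Ddx3y (-1.77, adjusted p = 0.230), with the epithelium covariate (adjusted p = 0.0779), with an exact rank test (adjusted p = 0.0762), with the replicate block (adjusted p = 0.0616), and without any 1 of HIF2 replicates 1, 2, 3 and 5 and WT replicates 2, 3, 5, 6 and 8 (adjusted p from 0.0514 to 0.0605).

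Cd36, a fatty acid translocase also found on endothelium, macrophages, fat and muscle, ranged from 0.74 to 7.12 FPKM in WT (median 2.06) and from 2.18 to 23.2 in HIF2 (median 8.64). HIF2 replicates 0 to 5 held 7.86 to 23.2 FPKM, all above the WT range, and replicates 6 to 8 held 2.18 to 4.14, inside it. It rose by 1.38 (SE 0.36, limma adjusted p = 0.00938). The call was lost in the libraries with little smooth muscle RNA (0.45, adjusted p = 0.348), when the smooth muscle mean was included (0.44, adjusted p = 0.423), with an epithelium covariate (0.92, adjusted p = 0.0732) and in the libraries with Ddx3y near 0 (1.15, adjusted p = 0.171). The endothelial mean was at most 0.62 in WT. In HIF2 it was 0.99 to 2.30 in replicates 0 to 5 and 0.37 to 0.50 in replicates 6 to 8. The macrophage mean was at most 0.88 in WT. In HIF2 it was 1.28 to 1.67 in replicates 0 to 5 and 0.74 to 1.26 in replicates 6 to 8. The adipocyte mean was -0.31 or more in HIF2 replicates 0 to 5, none above the highest WT value of 1.21, and -1.13 to -0.75 in replicates 6 to 8. None of 8 tested adipocyte genes was higher over all libraries and 1 was in HIF2 replicates 0 to 5, with a median of 0.65, and Adipoq was listed at 0 in 3 of the 18 libraries. The part of these cells in the result was not tested. Plin2, the coat protein of lipid droplets, ranged from 51.5 to 122 FPKM in WT (median 94.6) and from 74.2 to 171 in HIF2 (median 96.0). HIF2 replicates 6 to 8, at 158 to 171, were the 3 above the WT range, and the difference over all libraries was 0.22 (SE 0.19, limma adjusted p = 0.459).

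**Figure D4:**
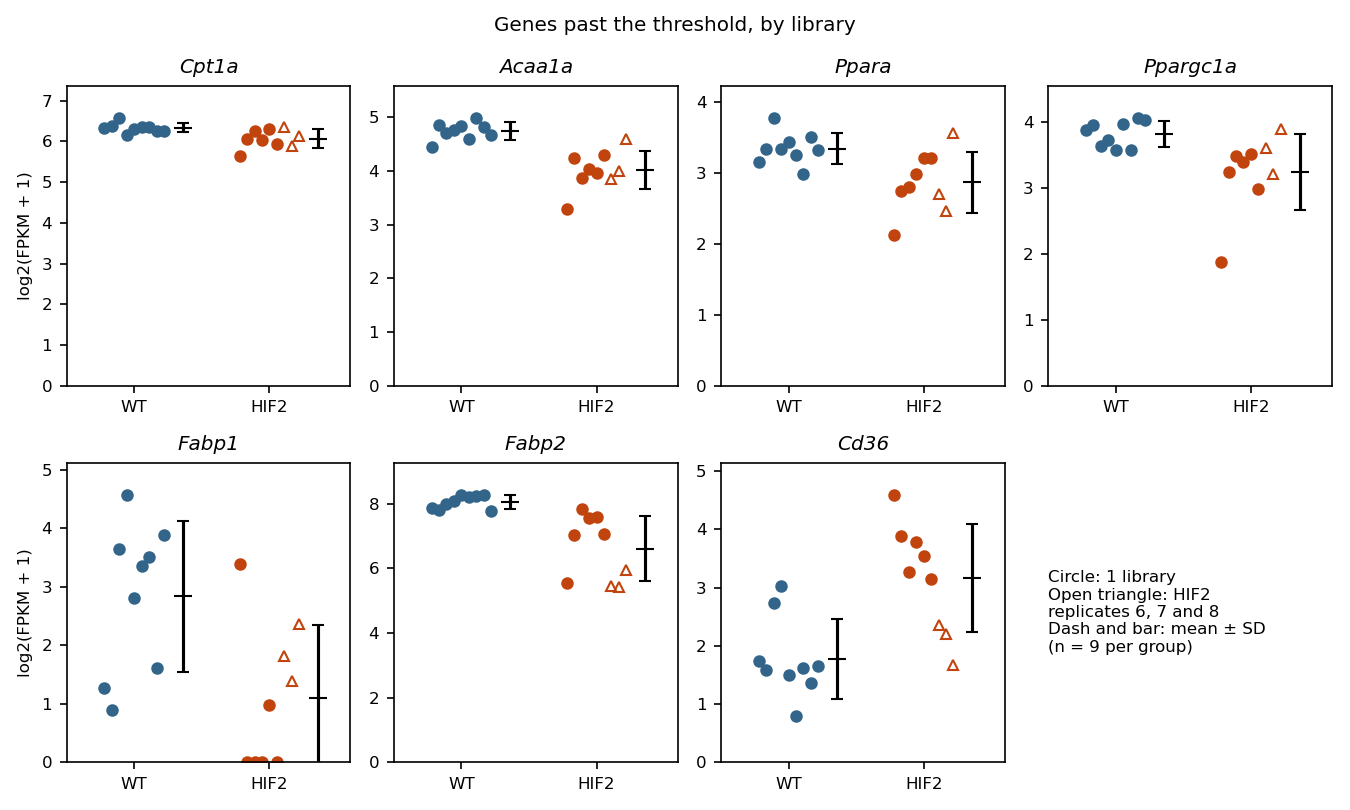
Level of each of the 7 genes past the threshold, as log2(FPKM + 1), in each WT and HIF2 library (points) with the mean ± SD of 9 libraries per group; open triangles are HIF2 replicates 6 to 8. Every panel has overlapping groups, and the triangles sit at the low end for Fabp2 and within the WT range for Cd36.

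Other genes of the same pathways, 114 in number and 98 tested, were 9 higher (9.18%) and 20 lower (20.4%), beside 11.0% and 11.1% of all genes, with a median of -0.07. Among 8 tested ketone body genes 1 fell, Aacs, which activates acetoacetate for lipid synthesis (-0.65, limma adjusted p = 0.00292). The differences of Slc16a7 (0.38), Slc16a1 (-0.29) and Oxct1 (-0.18) did not pass. Among 19 uptake and activation genes 1 rose, the acyl-CoA synthetase Acsl5 (0.53, adjusted p = 0.0191), and 8 fell, among them the ileal bile acid binding protein Fabp6 (-2.86, adjusted p = 0.000449), the carnitine acetyltransferase Crat (-0.47, adjusted p = 0.00215) and the transporter Slc27a1 (-0.38, adjusted p = 0.0179). Among 17 other mitochondrial acyl-CoA genes the thioesterases Acot9 (0.77, adjusted p = 0.00259) and Acot2 (0.47, adjusted p = 0.0284) rose and none fell, while Acadsb (0.30) and Ivd (-0.26) did not pass. Acot2 lost its call without HIF2 replicate 7 (adjusted p = 0.053) or WT replicate 1 (adjusted p = 0.0568).

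Among further peroxisomal genes, Pecr fell by 0.41 (limma adjusted p = 0.0443) and Scp2 rose by 0.27 (adjusted p = 0.0491), with the Pecr call lost under 22 of 36 alternatives and the Scp2 call under 21 of 37. The difference of Acox3 (-0.17) did not pass. Among 21 regulators and PPAR targets 8 fell and 2 rose. Ppard, a nuclear receptor related to PPARα, fell by 0.78 (adjusted p = 0.000769), the coactivator Ppargc1b fell by 0.73 (adjusted p = 0.00103), the AMPK subunit Prkaa2 fell by 0.61 (adjusted p = 0.000421) and the carrier Ucp2 fell by 0.50 (adjusted p = 0.000328). Angptl4, a PPAR and HIF target that inhibits lipoprotein lipase, rose by 1.40 (adjusted p = 0.00189). Pdk4, which restrains glucose oxidation, differed by 0.64 over all libraries (adjusted p = 0.206) and rose by 1.10 in HIF2 replicates 0 to 5 (adjusted p = 0.0202). Among 16 genes of lipid droplets and lipolysis 3 rose and 1 fell. Hilpda (1.33, adjusted p = 0.00808) and G0s2 (1.44, adjusted p = 0.0109), both inhibitors of the triglyceride lipase ATGL, rose, Mgll, which splits monoglycerides, rose by 0.51 (adjusted p = 0.0120), and Pnpla2, which encodes ATGL, fell by 0.46 (adjusted p = 0.0176). Both in the fit that included the smooth muscle mean and in the libraries with little smooth muscle RNA, the calls of G0s2, Mgll, Slc27a1 and Aacs were lost.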

How the data were processed

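Polyadenylated RNA from fresh or frozen colon was sequenced; per the labels, libraries came from the TruSeq RNA v2 kit. The authors deposited FPKM, 1 column per library, and all 18 columns were used. Tools in the submitters' processing notes are Cufflinks, Cuffdiff 2.1.1, TopHat, TopHat2 2.0.9, FastQC and Bowtie2 2.1.0.0, with the mm10 build and with no role or order. No source used here gives the scaling between libraries, the annotation release or the strand setting. The low values showed no common step for 1 read, since the most common ratio between libraries held for at most 1.83% of low genes, so depth is unknown and counting error was not computed.

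The scale used was log2(FPKM + 1), on which changes of low genes come out too small. The 13976 genes whose FPKM averaged 1 or more were tested with limma 3.58.1 in R 4.3.3 (trended prior, 2-sided), with Benjamini-Hochberg adjustment over all of them at 0.05. Intervals are 95%. Single genes have their p-values from this limma fit. The same fit was also run on simulated independent values, which do not hold the shared differences between libraries described above. The 4 ratios were tested by exact permutation, with 4.11e-05 the smallest possible p. No label ties each library to its own mouse, and the p-values therefore reflect only how these libraries vary. No library was treated as a duplicate, as pairs correlated at 0.931 or less.

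The members and the lists were chosen with earlier results of these data known, as were the sets of HIF2 replicates (6 to 8, 0 to 5, and all but 2 and 4). The Ddx3y fits were added after seeing the data. Other alternatives were no filter or 1 at a mean of 5, a pseudocount of 0.1 or 0.01, scaling by TPM, quantiles or upper quartile, array weights, a robust prior, the replicate block, ranks tested exactly, smooth muscle and epithelium covariates, and each library left out. All 32 members are accounted for. Full values were given for those past the threshold and for Cpt1a, Cpt2, Ppara, Ppargc1a, Plin2, Cd36, Fabp1, Fabp2, Bdh1 and Acat1. From each other list, up to 4 genes with the smallest p were named, with Pdk4 and Angptl4, and some genes that the rule takes are not reported here. Coordinates are from GENCODE on GRCm38, which mm10 denotes. Python 3.11.15 with pandas 2.3.3, scipy 1.17.1, biopython 1.88 and matplotlib 3.10.9 was used.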

Additional observations from a re-analysis of the deposited data

Results flagged for a closer look

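Of 72 groups of 9 libraries examined on the log2 scale, 5 held 1 library that stood far from the others. Chance gives about 1 in 20 for independent groups, and these groups share libraries. The levels below are given in FPKM. In HIF2 replicate 0, Acadm stood at 39.6 FPKM against a group median of 80.8, and Acads at 48.2 FPKM against 94.0. The same library held Hadh at 57.8 FPKM against a median of 97.5, and Ppargc1a at 2.69 FPKM against 9.51. In WT replicate 3, Plin2 stood at 51.5 FPKM against a group median of 94.6. HIF2 replicate 0 is the library with the highest neutrophil mean, and WT replicate 3 is the WT library with the highest smooth muscle mean; the part of either in these values was not tested.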

How the results depend on the processing

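No result changed direction with a call. Of 2545 values of 69 named genes under alternatives, 2200 kept their direction and side of the threshold, 248 lost it, 34 gained one and 63 changed sign without passing in either fit. Members called higher, 1 in the main analysis, numbered 3 with an epithelium covariate, 9 in the libraries with little smooth muscle RNA and 8 with the smooth muscle covariate. Members called lower, 6 in the main analysis, numbered 3 with the epithelium covariate, 3 with upper quartile scaling, 3 and 2 with the same 2 smooth muscle settings, and 1 in the libraries with Ddx3y near 0 and 1 in those with Ddx3y. Leaving out 1 library at a time gave 2 (without HIF2 replicate 1) to 6 lower. With the replicate block, 1 member was higher and 4 were lower, without Ppargc1a (adjusted p = 0.0628) and Fabp1 (adjusted p = 0.0616). The labels give the groups the same replicate numbers but no pairing, and deviations of same-numbered libraries correlated at -0.033 to 0.112, with 0 WT libraries closest to their own number.

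Other pathway genes called higher, 9 in the main analysis, numbered 18 with array weights, 5 with the filter at a mean FPKM of 5, 14 with no filter, 15 in the libraries with little smooth muscle RNA, 5 with an exact rank test, and 4 and 1 in the libraries with Ddx3y near 0 and with Ddx3y. Those called lower, 20 in the main analysis, numbered 8 and 7 in the same Ddx3y sets and 11 with the smooth muscle covariate. Of all genes, 1531 higher and 1557 lower in the main analysis, the filter at 5 gave 640 higher, no filter 2407 higher, the smooth muscle covariate 960 higher and 1024 lower, the libraries with Ddx3y near 0 387 higher and 585 lower, and those with Ddx3y 557 lower. The cause of these changes was not tested. The sets also held fewer libraries, and the filters changed the number of genes tested.

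The ratio of Cpt1b to Cpt1a differed by 0.20 in the main analysis, by -0.093 with a pseudocount of 0.1 and by -0.64 with 0.01. That of Acaa1b to Acaa1a was 1.07 and did not pass in the libraries with little smooth muscle RNA. That of Fabp1 to Fabp2 was 1.69 in those libraries, 0.21 without HIF2 replicates 2 and 4, -1.17 in HIF2 replicates 0 to 5, -1.69 with a pseudocount of 0.1, -3.16 with 0.01, and -0.70 to 0.0077 with 1 library left out, and passed in none of these. Depth is unknown, so levels near 0 (Cpt1b, Fabp1, Acaa1b) carry an error that could not be computed.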

Other observations

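Several genes of the wider lists also passed over all 18 libraries. They were chosen for mention after their values were seen. Vnn1, a pantetheinase and PPAR target, rose from 3.36 ± 0.54 to 8.26 ± 6.17 FPKM (SD, n = 9; limma adjusted p = 0.0174), and the nuclear receptor partner Rxra fell by 0.48 (adjusted p = 0.00271). The liver and gut transcription factor gene Creb3l3 fell by 0.54 (adjusted p = 0.00854) and the orphan receptor gene Esrrg fell by 0.63 (adjusted p = 0.00904). The acetyl-CoA synthetase gene Acss2 fell by 0.81 (adjusted p = 0.0195). Among the alternatives, Rxra lost its call only in the libraries with Ddx3y, Vnn1 and Creb3l3 lost theirs in both Ddx3y sets, Esrrg lost its call in the libraries with Ddx3y and with the smooth muscle covariate, and Acss2 lost its call with the smooth muscle covariate (-0.47, adjusted p = 0.311).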
